A study of Homo sapiens with 8 samples.

Results

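Eph receptors, the largest family of receptor tyrosine kinases, and their membrane-bound ligands, the ephrins, were followed in HCT116 cells exposed to histone deacetylase inhibitors. The set named 10 genes: the A-class receptors EPHA1, EPHA2 and EPHA4, the B-class receptors EPHB2, EPHB3, EPHB4 and EPHB6, and the ephrins EFNA1, EFNB1 and EFNB2. A probe set (a group of short probes for a transcript) was taken for a gene where the platform's annotation gave that gene as its single symbol. By this rule 9 of the 10 genes had 18 probe sets, out of 54613 on the array. No probe set carried EPHB2 as its single symbol in the annotation used, so EPHB2 was not analysed here. Where a gene had several, the brightest on average across the 8 arrays stands for it, with the others beside it.

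HCT116 is an established human colorectal carcinoma line. Cultures were exposed for 10 h to largazole at 20 nM, SAHA (vorinostat) at 2 µM, FK228 (romidepsin) at 20 nM, or vehicle, and each of the 4 groups had 2 Affymetrix arrays. Largazole and FK228 are cyclic depsipeptides and SAHA is a hydroxamic acid, and all 3 inhibit histone deacetylases, enzymes that remove acetyl groups from lysines. The labels call the experiment a duplicate without naming separate cultures, so p-values measure the spread between these arrays, which may be technical.

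Eph receptors bind ephrins on neighbouring cells, and the contact signals in both directions: forward through the receptor's kinase and in reverse through the ephrin. A-class ephrins are held in the membrane by a lipid anchor, whereas B-class ephrins cross it and end in a cytoplasmic tail. In the intestine, EPHB2 and EPHB3 are targets of Wnt signalling at the crypt base, and their repulsion from ephrin-B on differentiated cells keeps the compartments apart. HCT116 cells carry an activating mutation of beta-catenin, the Wnt effector.

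Array medians lay between 4.47 and 4.51 on the log2 scale of the deposited values, and the arrays of a group correlated at r of 0.9953 to 0.9970 across all probe sets, which are not independent replicates. Over all probe sets tested, the 95% confidence interval for a log2 difference had a median half-width of 0.257, so the number of arrays limits the precision. Epithelial markers were present: KRT18 averaged 12.85, EPCAM 12.36, KRT8 12.15 and CDH1 9.96, and 11 of the 12 listed passed the filter, whose value of 4.49 is the median of all deposited values. CEACAM5 (5.59), CDX2 (5.28), TFF3 (4.84) and VIL1 (4.56) averaged above that value, and MUC2 (4.30), KRT20 (4.10) and LGALS4 (3.68) below it. None of the 4 leukocyte markers found among 6 listed reached that filter. Of 6 fibroblast markers 3 did. The summed linear level of all 6 was 388 to 464 with largazole, 288 to 335 with SAHA, 282 to 313 with FK228 and 219 to 238 with vehicle. COL1A1 (8.40, 7.85, 7.73 and 7.13 in the same order) made up most of it, whereas COL1A2, COL3A1 and LUM averaged between 2.60 and 3.50 in every group. Whether that rise has a part in the results below was not tested. Endothelial markers summed to 104 to 106 with largazole, 99.3 to 105 with SAHA, 107 to 114 with FK228 and 102 to 115 with vehicle.

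The question of each comparison with vehicle is which transcripts an inhibitor changed. EPHB3, EPHA4 and EFNB2 rose with all 3 compounds, by 2.09-fold to 3.15-fold, and EFNA1 and EPHB4 fell with all 3. EFNB1 rose slightly with SAHA and FK228, and EPHA2 rose with largazole. EPHA1 and EPHB6 passed the test in none of the comparisons. All 9 genes were tested, and their reported probe sets lay above the filter value on every array.

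By count, largazole raised 4 of the 9 genes and lowered 2, where 21.9% of all 13381 tested genes were called higher and 23.2% lower. With SAHA 4 rose and 2 fell, against 22.1% of all genes higher and 25.2% lower. With FK228 4 rose and 2 fell, against 25.7% of all genes higher and 27.1% lower. The median log2 difference of the 9 genes was 0.18 with largazole, 0.13 with SAHA and -0.13 with FK228, beside 0.002, -0.019 and 0.013 over all tested genes. The set was chosen with earlier results of these data known, so its counts beside these shares do not measure enrichment. The 3 comparisons share their vehicle arrays. In RNA from whole cultures, fewer expressing cells and less RNA per cell cannot be told apart.

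**Figure D1:**
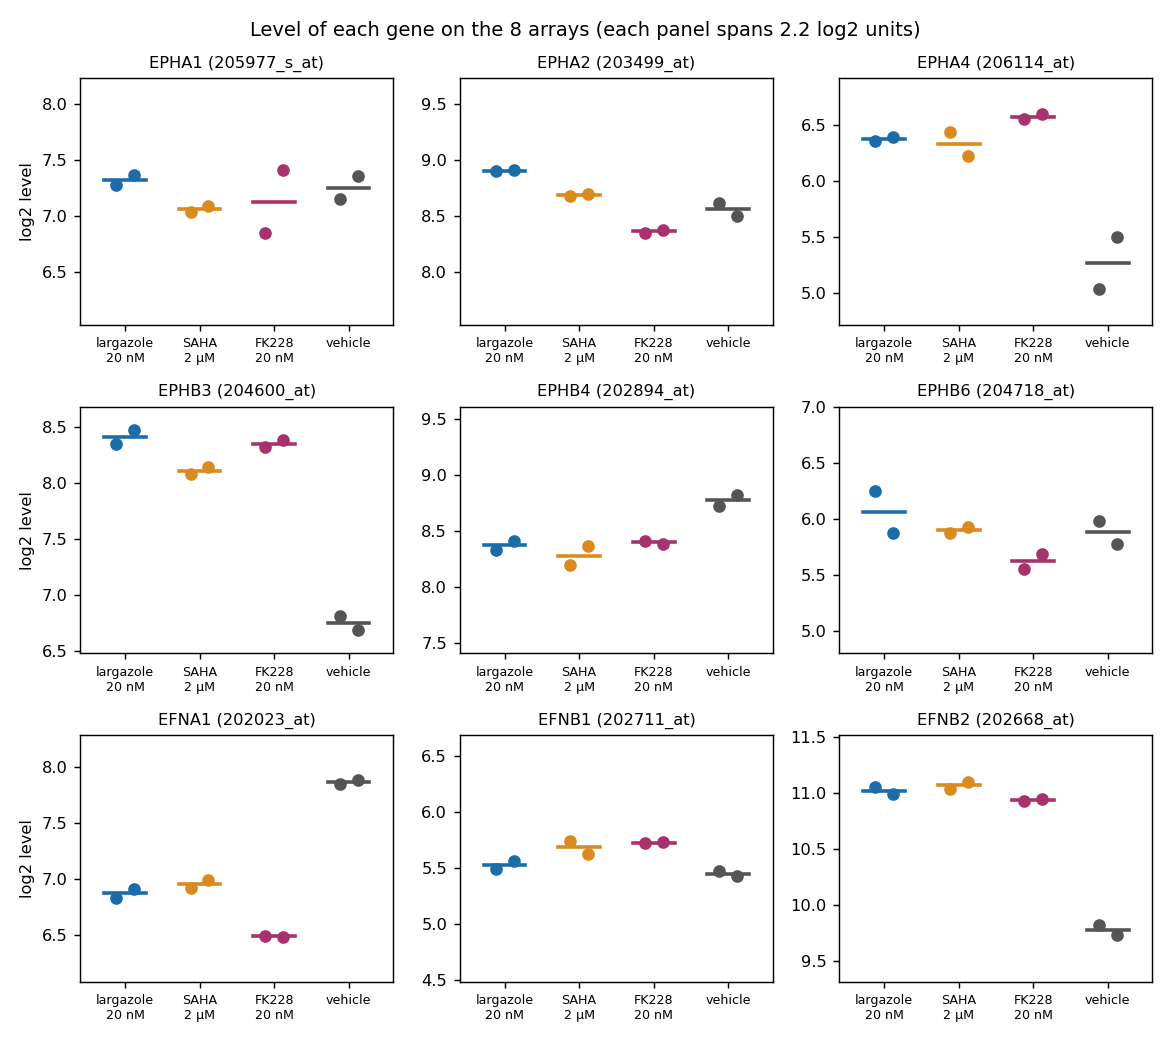
Log2 level of each gene on the 8 arrays (points) with the group mean (line), for largazole 20 nM, SAHA 2 µM, FK228 20 nM and vehicle; the probe set is named in each title and every panel spans 2.2 log2 units. EPHB3, EPHA4 and EFNB2 lie higher on all 6 treated arrays than on both vehicle arrays, EFNA1 and EPHB4 lie lower, and the FK228 arrays of EPHA1 stand at 6.85 and 7.41, on either side of the vehicle arrays.

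EPHB3, a crypt receptor that restricts Paneth cells to the crypt base in mice, moved most on the reported probe sets. Its log2 level was 8.35 and 8.47 on the largazole arrays, 8.08 and 8.14 on the SAHA arrays and 8.32 and 8.38 on the FK228 arrays, against 6.81 and 6.69 on the vehicle arrays. All 6 treated arrays lay above both vehicle arrays. The log2 difference was 1.66 ± 0.089 with largazole (SE, n = 2 per group, limma adjusted p = 1.51e-05), which is 3.15-fold. With SAHA it was 1.36 ± 0.089 (adjusted p = 2.75e-05), or 2.56-fold, and with FK228 1.60 ± 0.089 (adjusted p = 7.9e-06), or 3.03-fold. In order, largazole was highest, then FK228, SAHA and vehicle. Neighbouring compounds did not pass the test: largazole minus FK228 was 0.06 (95% confidence interval -0.15 to 0.27) and FK228 minus SAHA 0.24 (0.03 to 0.45, adjusted p = 0.153).

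The second EPHB3 probe set, 1438_at, gave another order among the compounds. It read 6.58 and 6.49 with largazole, 6.55 and 6.52 with SAHA and 7.09 and 6.98 with FK228, against 5.31 and 5.49 with vehicle. FK228 stood clear of both other compounds on this probe set, while on 204600_at the FK228 and largazole arrays overlapped. Largazole minus FK228 was -0.50 ± 0.095 (adjusted p = 0.023) and FK228 minus SAHA 0.50 ± 0.095 (adjusted p = 0.0304). Against vehicle the rise was 1.13 with largazole, 1.13 with SAHA and 1.63 with FK228, so both probe sets rose with every compound but ranked the compounds differently. Largazole and SAHA, which did not overlap on 204600_at, overlapped on 1438_at.

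The stretch before the EPHB3 start site is shown because the gene rose most of the set on the reported probe sets. On 1438_at its rises with largazole and SAHA (1.13 each) were under those of EFNB2 on its reported probe set (1.25 and 1.29). It spans the 250 bases upstream of the RefSeq start (chr3:184561535-184561784, plus strand, GRCh38.p14), with a GC content of 70.0% and 21 CpG dinucleotides, where the median over 27305 promoters was 57.6% and 10. Capitals mark GGGCGG or its reverse complement CCGCCC, the letters that SP1-type factors bind, found 3 times here.
EPHB3: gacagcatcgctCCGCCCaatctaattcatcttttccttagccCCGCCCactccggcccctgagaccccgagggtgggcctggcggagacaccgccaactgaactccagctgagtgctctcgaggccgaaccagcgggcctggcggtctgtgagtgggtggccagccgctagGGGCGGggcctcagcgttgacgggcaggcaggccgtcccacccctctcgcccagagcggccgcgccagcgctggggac

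EPHA4, a receptor that binds ephrins of both classes, also rose with all 3 compounds. Its log2 level was 6.36 and 6.40 with largazole, 6.44 and 6.23 with SAHA and 6.56 and 6.60 with FK228, against 5.04 and 5.50 with vehicle. The vehicle arrays lay further apart than any treated pair, yet both were under every treated array. The difference was 1.11 ± 0.15 with largazole (SE, n = 2 per group, limma adjusted p = 0.000773), 1.07 ± 0.15 with SAHA (adjusted p = 0.00085) and 1.31 ± 0.15 with FK228 (adjusted p = 0.000225). These are 2.16-fold, 2.09-fold and 2.48-fold. FK228 was highest, then largazole, SAHA and vehicle, and no pair of compounds differed beyond the test (largazole minus FK228 -0.20, 95% confidence interval -0.54 to 0.15).

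Of the 4 further EPHA4 probe sets, 238671_at stayed at 2.53 to 3.06 on all arrays and failed the filter, and the other 3 were tested. On 227449_at the difference from vehicle was 1.88 with largazole, 1.72 with SAHA and 1.71 with FK228. Its vehicle values, 3.62 and 3.57, lay under the filter value, so the size is less certain there. On 228948_at it was 1.01 with largazole, 1.18 with SAHA and 1.53 with FK228, again from vehicle values under the filter (3.27 and 3.32). There largazole minus FK228 was -0.52 (95% confidence interval -0.82 to -0.22, adjusted p = 0.0496). Both largazole values, 4.16 and 4.45, were under the filter as well, and the FK228 values, 4.74 and 4.91, were the highest. A higher FK228 level was thus favoured by the choice of this probe set, and the call adds no support for a difference between the compounds. On 229374_at the rise passed the test with FK228 (0.59, adjusted p = 0.028) but not with largazole (0.52, adjusted p = 0.0501) or SAHA (0.46, adjusted p = 0.0721). Both vehicle values were under the filter there too. These 3 probe sets passed the filter through treated arrays alone, so a higher treated level was built into the choice and adds no support to the rise on 206114_at.

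EPHA4 had the promoter poorest in GC of the 5 genes called with all 3 compounds, at 43.2% with 9 CpG dinucleotides (chr2:221574203-221574452, minus strand, GRCh38.p14). It held GGGCGG or its reverse complement once, in capitals. RefSeq lists 2 start sites for EPHA4, and the upstream one is shown.
EPHA4: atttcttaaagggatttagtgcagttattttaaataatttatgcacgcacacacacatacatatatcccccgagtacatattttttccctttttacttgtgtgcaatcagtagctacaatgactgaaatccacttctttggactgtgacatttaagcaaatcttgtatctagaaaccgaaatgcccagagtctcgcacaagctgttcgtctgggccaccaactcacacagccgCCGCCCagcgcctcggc

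EFNB2, the transmembrane ephrin-B2 that marks arteries and binds EPHB4, was the ephrin of the set that rose with every compound. Its log2 level was 11.05 and 10.99 with largazole, 11.04 and 11.10 with SAHA and 10.93 and 10.95 with FK228, against 9.82 and 9.73 with vehicle. The treated arrays lay close together and all above vehicle. The difference was 1.25 ± 0.081 with largazole (SE, n = 2 per group, limma adjusted p = 2.91e-05), 1.29 ± 0.081 with SAHA (adjusted p = 2.29e-05) and 1.17 ± 0.081 with FK228 (adjusted p = 1.9e-05), or 2.37-fold, 2.45-fold and 2.25-fold. The second probe set, 202669_s_at, gave 1.42, 1.23 and 1.54 in the same order of compounds. SAHA was thus highest of the 3 on the first probe set and lowest on the second, and no pair of compounds passed the test on either (FK228 minus SAHA -0.12, adjusted p = 0.397, and 0.32, adjusted p = 0.0984).

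The EFNB2 promoter was the richest in GC of these 5, at 78.4% with 40 CpG dinucleotides (chr13:106535663-106535912, minus strand, GRCh38.p14), and held the same letters 3 times, in capitals.
EFNB2: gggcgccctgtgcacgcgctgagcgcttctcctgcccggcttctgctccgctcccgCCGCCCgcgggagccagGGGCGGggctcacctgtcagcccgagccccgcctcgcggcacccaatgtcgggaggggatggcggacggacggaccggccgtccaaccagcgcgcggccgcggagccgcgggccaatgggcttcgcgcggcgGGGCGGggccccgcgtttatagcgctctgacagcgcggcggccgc

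EFNA1, ephrin-A1, a lipid-anchored ligand of EPHA2, fell. Its log2 level was 6.83 and 6.91 with largazole, 6.92 and 6.99 with SAHA and 6.49 and 6.48 with FK228, against 7.85 and 7.88 with vehicle. Every treated array lay below vehicle, and the FK228 arrays lay below those of both other compounds. With largazole the level was 0.501 of that with vehicle, and the 95% confidence interval of the log2 difference ran from -1.18 to -0.81 (n = 2 per group, limma adjusted p = 6.81e-05). The log2 difference was -0.91 ± 0.080 with SAHA (SE, adjusted p = 9.02e-05), or 0.533 of vehicle, and -1.38 ± 0.080 with FK228 (adjusted p = 9.06e-06), or 0.385 of vehicle. EFNA1 has a single probe set here.

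Upstream of EFNA1 (chr1:155127626-155127875, plus strand, GRCh38.p14), GGGCGG or its reverse complement occurred 5 times, one pair of matches sharing a base. GC content was 73.2%, with 24 CpG dinucleotides. The sequence is shown beside those of the genes that rose.
EFNA1: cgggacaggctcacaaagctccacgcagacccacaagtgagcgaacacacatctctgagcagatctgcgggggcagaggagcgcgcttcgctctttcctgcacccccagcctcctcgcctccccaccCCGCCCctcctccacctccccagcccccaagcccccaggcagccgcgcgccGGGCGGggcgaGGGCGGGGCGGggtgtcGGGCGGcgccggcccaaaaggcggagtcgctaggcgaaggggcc

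EPHB4, the receptor of ephrin-B2, fell by less. Its log2 level was 8.33 and 8.41 with largazole, 8.19 and 8.36 with SAHA and 8.41 and 8.38 with FK228, against 8.72 and 8.82 with vehicle. The groups did not overlap with vehicle, but overlapped with each other except for FK228 and SAHA. The difference was -0.40 ± 0.092 with largazole (SE, n = 2 per group, limma adjusted p = 0.00955), -0.50 ± 0.092 with SAHA (adjusted p = 0.00316) and -0.38 ± 0.092 with FK228 (adjusted p = 0.0106), or 0.756, 0.707 and 0.771 of the vehicle level. Leaving out vehicle replicate 2 ended the calls with largazole (adjusted p = 0.0609) and FK228 (0.0633), and leaving out largazole replicate 1 ended that with largazole (0.0656). On the second probe set, 216680_s_at, the differences were -0.26, -0.22 and -0.10 and none passed the test (adjusted p = 0.0728, 0.118 and 0.435).

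The EPHB4 promoter (chr7:100827524-100827773, minus strand, GRCh38.p14) had a GC content of 72.8%, 29 CpG dinucleotides and 4 matches to the same letters.
EPHB4: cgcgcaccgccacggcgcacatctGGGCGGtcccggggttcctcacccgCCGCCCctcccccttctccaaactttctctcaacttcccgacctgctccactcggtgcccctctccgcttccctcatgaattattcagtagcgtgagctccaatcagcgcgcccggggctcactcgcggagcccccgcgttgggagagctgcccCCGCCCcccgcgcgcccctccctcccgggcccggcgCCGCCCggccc

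GGGCGG on either strand was present upstream of all 9 genes and in 42.2% of all 27305 promoters of that length. The motif holds only G and C, and no promoters matched for GC content were searched, so these shares do not measure enrichment. CTTTGA, the core that TCF factors of the Wnt pathway recognise, was found upstream of EPHA2 alone, and in 11.4% of all promoters. TGACTCA, the AP-1 site (4.2% of all promoters), and CACGTG, an E-box (6.5%), were in none of the 9. Both strands were searched, and a missing match says only that these letters are not in this window.

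**Figure D2:**
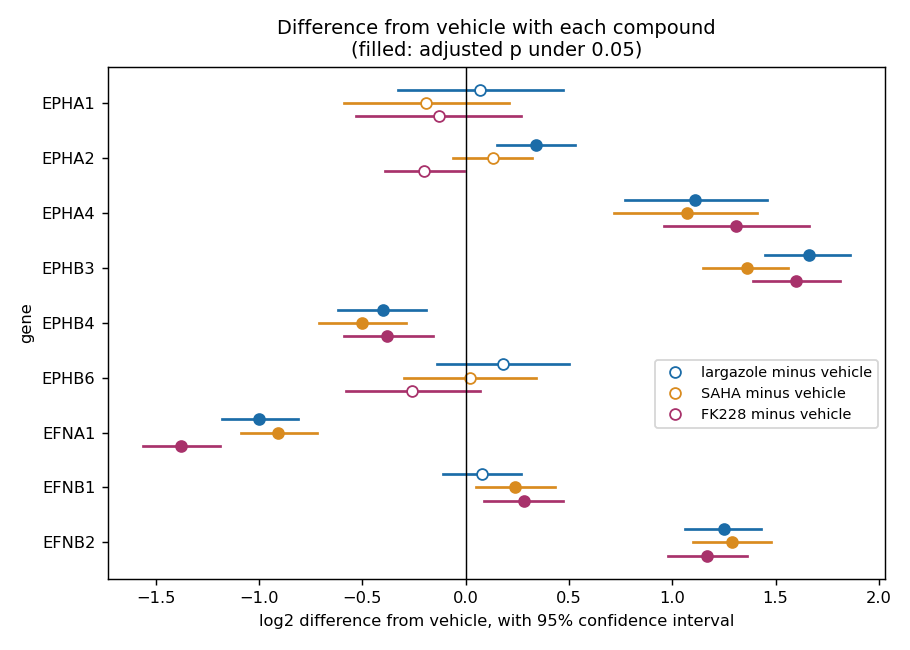
Log2 difference from vehicle (horizontal axis) for each gene with largazole, SAHA and FK228, with 95% confidence intervals; filled points had an adjusted p under 0.05. EPHB3, EPHA4 and EFNB2 lie between 1.07 and 1.66, EFNA1 between -1.38 and -0.91, and EPHA2 runs from 0.34 with largazole to -0.20 with FK228.

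EPHA2, the ephrin-A1 receptor often raised in carcinomas, was spread out by compound. Its log2 level was 8.90 and 8.91 with largazole, 8.68 and 8.70 with SAHA and 8.35 and 8.38 with FK228, against 8.62 and 8.50 with vehicle. No 2 groups overlapped, and the order was largazole, SAHA, vehicle, FK228. The difference from vehicle was 0.34 ± 0.082 with largazole (SE, n = 2 per group, limma adjusted p = 0.0117), 0.13 ± 0.082 with SAHA (adjusted p = 0.247) and -0.20 ± 0.082 with FK228 (adjusted p = 0.0825). Neighbours in the order did not pass the test: largazole minus SAHA was 0.21 (adjusted p = 0.349). Leaving out either largazole array ended the largazole call (adjusted p = 0.0603 for replicate 1 and 0.0625 for replicate 2), as did leaving out vehicle replicate 2 (0.0765). EPHA2 has a single probe set here.

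EFNB1, ephrin-B1, the ligand mutated in craniofrontonasal syndrome, had 5.49 and 5.56 with largazole, 5.74 and 5.63 with SAHA and 5.72 and 5.73 with FK228, against 5.47 and 5.43 with vehicle. Each treated group lay above vehicle, by small margins. The difference was 0.08 ± 0.082 with largazole (limma adjusted p = 0.505), 0.24 ± 0.082 with SAHA (adjusted p = 0.0493) and 0.28 ± 0.082 with FK228 (adjusted p = 0.0238). The SAHA call ended with any of the 8 arrays left out (adjusted p = 0.0559 to 0.200). That with FK228 ended without FK228 replicate 1 (0.0752), FK228 replicate 2 (0.0821), vehicle replicate 1 (0.0663) or vehicle replicate 2 (0.101). Without a filter on dim probe sets both calls ended (adjusted p = 0.139 with SAHA and 0.0737 with FK228).

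EPHA1, the receptor first cloned in the family, had 7.28 and 7.37 with largazole, 7.04 and 7.09 with SAHA and 6.85 and 7.41 with FK228, against 7.15 and 7.36 with vehicle. On the 9 reported probe sets, no other pair of arrays of a group lay as far apart as these FK228 arrays. The differences were 0.07 (95% confidence interval -0.33 to 0.47), -0.19 (-0.59 to 0.21) and -0.13 (-0.53 to 0.27), so changes within those bounds were not resolved. With FK228 replicate 2 left out, the FK228 difference was -0.41 and passed the test (adjusted p = 0.0362), and without FK228 replicate 1 it was 0.15. Its 2 other probe sets lay at 3.54 to 4.05, under the filter.

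EPHB6, a receptor whose kinase domain lacks catalytic activity, had 6.25 and 5.87 with largazole, 5.87 and 5.93 with SAHA and 5.55 and 5.69 with FK228, against 5.98 and 5.78 with vehicle. The FK228 arrays lay lowest and did not overlap with vehicle, whereas the other groups did. The differences from vehicle were 0.18 ± 0.14 with largazole, 0.02 ± 0.14 with SAHA and -0.26 ± 0.14 with FK228 (limma adjusted p = 0.348, 0.929 and 0.166).

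**Figure D3:**
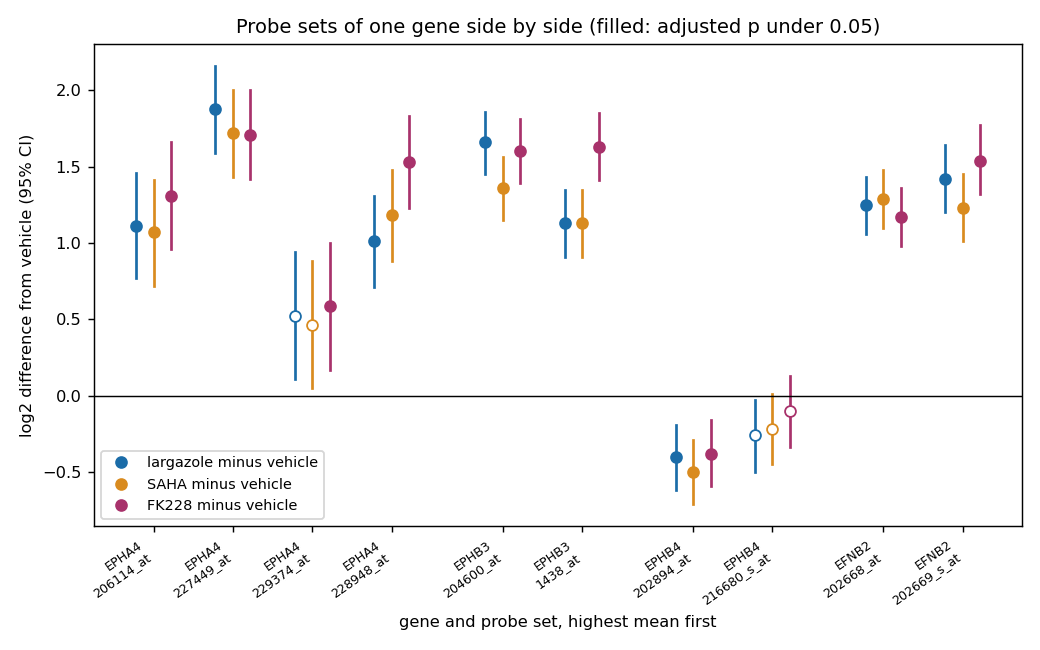
Log2 difference from vehicle (vertical axis, 95% confidence intervals) on each tested probe set of the 4 genes with more than 1; filled points had an adjusted p under 0.05. Probe sets of a gene share their sign with each compound, while FK228 stands at 1.63 on EPHB3 probe set 1438_at, where largazole and SAHA are both at 1.13. The EPHA4 probe sets after the first passed the filter through treated arrays alone, so their sign was built into the choice and adds no support.

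Largazole and FK228, the depsipeptides, were compared at a matched 20 nM and 10 h. Largazole carries a thioester and FK228 a disulfide, as groups that free the zinc-binding thiol inside cells. On the reported probe sets, EPHA2 and EFNA1 were higher with largazole and the remaining 7 genes did not pass the test, so 2 of 9 were called where 9.07% of all tested genes were. EPHA2 differed by 0.54 ± 0.082 (SE, n = 2 per group, limma adjusted p = 0.012), which is 1.45-fold, and EFNA1 by 0.38 ± 0.080 (adjusted p = 0.031), which is 1.30-fold. EPHB6 was 0.44 ± 0.14 higher (95% confidence interval 0.12 to 0.76) but missed the threshold (adjusted p = 0.0982). For EFNB2 the interval was -0.11 to 0.27, and for EPHB4 it was -0.24 to 0.19, so differences between the 2 compounds inside those bounds were not resolved.

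Of the further probe sets, EPHB3 1438_at (-0.50) and EPHA4 228948_at (-0.52) were called lower with largazole, as given above. On 228948_at a higher FK228 level was favoured by the filter, so its call adds no support. Whether the calls on these further probe sets depend on single arrays was not tested. Both calls on the reported probe sets depended on single arrays. That of EPHA2 ended without largazole replicate 1 (adjusted p = 0.0922), largazole replicate 2 (0.0764) or FK228 replicate 1 (0.0574), with the difference still at 0.52 to 0.54. That of EFNA1 ended without largazole replicate 1 (0.135), largazole replicate 2 (0.160), FK228 replicate 1 (0.100), FK228 replicate 2 (0.109), vehicle replicate 1 or vehicle replicate 2 (both 0.0520), with the difference between 0.34 and 0.42. It also ended with no filter (0.0930) and with only the 4 arrays compared (0.0720).

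**Figure D4:**
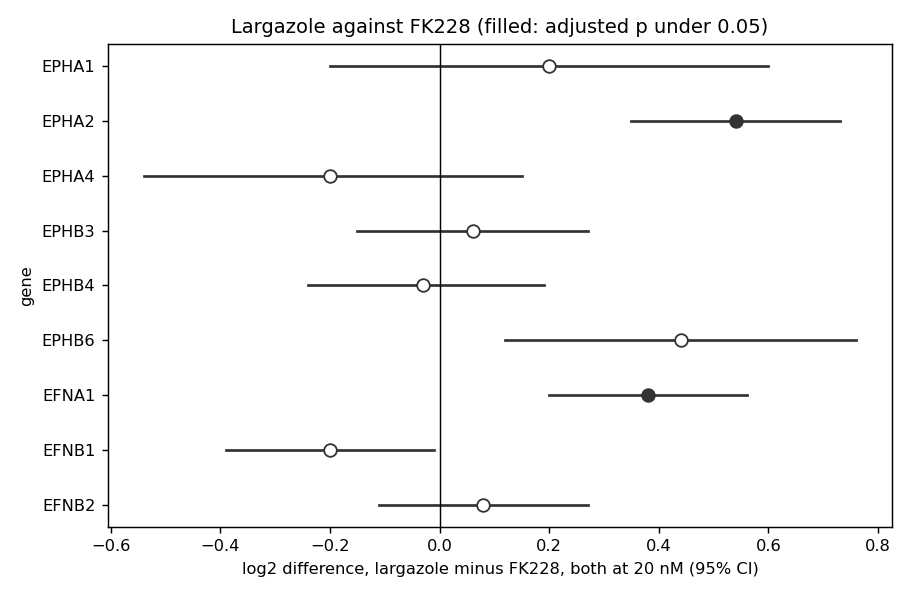
Log2 difference, largazole minus FK228, both at 20 nM (horizontal axis) for the 9 genes, with 95% confidence intervals; filled points had an adjusted p under 0.05. EPHA2 at 0.54 and EFNA1 at 0.38 are filled, and the intervals of EPHA1, EPHA4, EPHB3, EPHB4 and EFNB2 span 0.

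SAHA was given at another concentration, 2 µM, so its contrasts with the 20 nM depsipeptides compare treatments and not compounds at a matched dose. Between largazole and SAHA 0 of the 9 genes passed limma's test, where 0.0224% of all genes were called. Between FK228 and SAHA 1 gene, EFNA1, was called, lower with FK228 by -0.47 ± 0.080 on the log2 scale (adjusted p = 0.0217), where 6.15% of all genes were. The EFNA1 call ended without FK228 replicate 1 (0.0787), FK228 replicate 2 (0.0854), SAHA replicate 1 (0.0786) or SAHA replicate 2 (0.0833). EPHA2 stood at -0.33 (95% confidence interval -0.52 to -0.14, adjusted p = 0.0625).

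Of the 12 further Eph receptors and ephrins, 7 passed the filter: EPHA8, EPHA10, EFNA2, EFNA3, EFNA4, EFNA5 and EFNB3. EPHA3, EPHA5, EPHA6, EPHA7 and EPHB1 lay between 1.96 and 4.67 on every array and were not tested. With largazole 1 rose and 1 fell (median 0.12), with SAHA 1 rose and 2 fell (0.08), and with FK228 1 rose and 1 fell (0.09). Of all tested genes, 21.9% were called higher and 23.2% lower with largazole. These shares were 22.1% and 25.2% with SAHA, and 25.7% and 27.1% with FK228. EFNA2, a lipid-anchored ephrin, moved furthest, with 6.65 and 6.87 with largazole, 6.45 and 6.44 with SAHA and 6.58 and 6.54 with FK228, against 8.31 and 8.62 with vehicle. Its difference was -1.71 ± 0.12, -2.02 ± 0.12 and -1.91 ± 0.12 (limma adjusted p = 4.28e-05, 1.99e-05 and 1.39e-05). The 2 other EFNA2 probe sets lay at 3.32 to 3.70 on all arrays, so the fall rests on 238956_at alone.

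EFNA3 and EFNA4 are further lipid-anchored ephrins, and RefSeq places EFNA4, EFNA3 and EFNA1 beside each other on chromosome 1, with 0 protein-coding genes between them. EFNA3 was 0.47 ± 0.14 higher with each compound (limma adjusted p = 0.0264 with largazole, 0.0254 with SAHA and 0.0213 with FK228), while its neighbour EFNA1 fell. EFNA3 had 7.65 and 7.55 with largazole, 7.39 and 7.80 with SAHA and 7.53 and 7.67 with FK228, against 7.09 and 7.16 with vehicle. Its calls ended without either vehicle replicate (adjusted p = 0.0594 to 0.112), without either largazole replicate for largazole (0.124 and 0.0684), and without SAHA replicate 2 (0.116) or FK228 replicate 2 (0.0981) for those compounds, with a difference of 0.26 at SAHA in that case. EFNA4 stayed near vehicle, at 0.12 with largazole, 0.15 with SAHA and 0.13 with FK228 (adjusted p = 0.573, 0.464 and 0.506). EPHA8 fell with SAHA (-0.32, adjusted p = 0.0243), a call that ended without SAHA replicate 1 (0.0656), SAHA replicate 2 (0.0915) or vehicle replicate 2 (0.133), and did not pass the test with largazole (-0.26, adjusted p = 0.0562). EFNA5 passed no test on its brightest probe set (0.55 with largazole, adjusted p = 0.088, but 0.0414 without either FK228 replicate). On its second tested probe set, 227955_s_at, the difference was 0.50 with largazole (adjusted p = 0.0267) and 0.50 with SAHA (0.0242). The vehicle values there, 4.07 and 4.27, were under the filter, which the probe set passed through treated arrays.

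Adaptors and Src-family kinases that carry Eph and ephrin signals had called genes in both directions. Among all tested genes, 21.9% were called higher and 23.2% lower with largazole, 22.1% and 25.2% with SAHA, and 25.7% and 27.1% with FK228, and the counts of this and the next 2 lists stand beside those shares. Of 31 tested among 35 listed, 8 rose and 10 fell with largazole, 9 rose and 12 fell with SAHA, and 9 rose and 10 fell with FK228, with medians of 0.07, -0.03 and -0.01. FYN, a Src-family kinase, rose most, with a mean log2 level of 8.90 with largazole, 8.88 with SAHA and 8.93 with FK228, against 6.88 with vehicle. SRC itself fell, by -1.02, -1.43 and -1.60 on the log2 scale (limma adjusted p = 0.00351, 0.000602 and 0.000255). The transcription factor STAT3 rose by 1.62, 1.61 and 1.76. INPPL1, the lipid phosphatase SHIP2 that binds EPHA2, fell by -1.04, -1.21 and -0.99, and RGS3, which binds the tail of ephrin-B, by -0.94, -1.14 and -1.38.

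Proteases that cut Ephs and ephrins included subunits of gamma-secretase that were called in opposite directions. Of 12 tested among 14 listed, 0 rose and 2 fell with largazole, 1 rose and 3 fell with SAHA, and 1 rose and 3 fell with FK228, with medians of -0.09, -0.11 and -0.06. NCSTN, the nicastrin subunit of gamma-secretase, fell by -0.73, -0.73 and -0.72 (limma adjusted p = 0.00403, 0.00351 and 0.00315). PSENEN, another subunit, rose with SAHA (0.52) and FK228 (0.55), and APH1A, a further one, fell with largazole (-0.38), SAHA (-0.26) and FK228 (-0.35). The membrane protease MMP14 fell with SAHA (-0.37, adjusted p = 0.016) and FK228 (-0.33, adjusted p = 0.0237).

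Wnt targets that share the crypt with EPHB3 had calls in both directions too, to be read beside the same shares of all genes. Of 13 tested among 18 listed, 5 rose and 4 fell with largazole, 1 rose and 4 fell with SAHA, and 2 rose and 5 fell with FK228, with medians of -0.01, -0.04 and -0.14. TNFRSF19, a receptor of the tumour necrosis factor family, averaged 7.28 with largazole, 7.19 with SAHA and 7.91 with FK228, against 3.89 with vehicle. That vehicle mean is under the filter value, so the size of its rise is uncertain. The gene passed the filter through treated arrays, so a higher treated level was built into its place among the genes that rose. SP5 rose with largazole (0.88) and FK228 (0.60). CD44, an adhesion receptor (-1.40, -1.32 and -1.58), and RNF43, a ubiquitin ligase that removes Wnt receptors (-1.36, -1.72 and -2.79), fell. All 4 lists were chosen with earlier results of these data known.

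**Figure D5:**
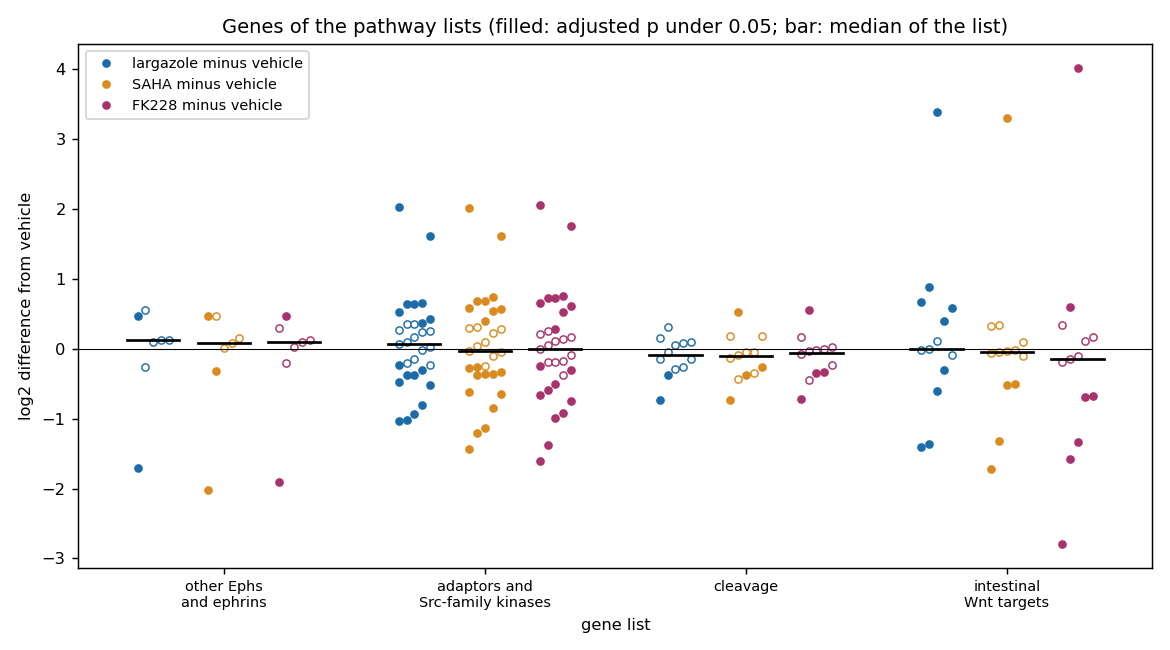
Log2 difference from vehicle (vertical axis) of each tested gene in the 4 lists with largazole, SAHA and FK228; filled points had an adjusted p under 0.05 and bars are list medians. Medians lie between -0.14 and 0.12, and points past the threshold stand on both sides of 0 in every list except cleavage with largazole, where 2 fell and 0 rose.

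Genes whose pattern over the 8 arrays was most like each member were found by the root mean square difference of centred log2 levels, outside the family. For EPHB3 these were IL10RA (0.078), H2BC12 (0.079) and MTSS1 (0.081), and for EFNB2 they were IL17RD (0.053), ATG4A (0.055) and DISP2 (0.058). EPHA4 came closest to SNX29 (0.090), GDF11 (0.095) and CNTNAP2 (0.104). For EFNA1 they were TOMM40L (0.047), DYRK1A (0.050) and TLK2 (0.053), and for EPHB4 RNPEP (0.032), L3MBTL2 (0.037) and SSRP1 (0.039). EPHA2, with its rise at largazole and its low FK228 values, was nearest to RESF1 (0.050), LRIF1 (0.058) and HMGA1 (0.061). EFNB1 lay nearest to ANKIB1 (0.027), EPHA1 to ATAT1 (0.051) and EPHB6 to CRNDE (0.056), none differing from vehicle by over 0.27. On the same scale, a member's own scatter within groups ran from 0.028 for EFNA1 to 0.152 for EPHA1, with 0.048 for EPHB3. For EPHA1, EPHA4, EPHB4, EPHB6 and EFNB1 the nearest distance was smaller than that scatter. Likeness there includes differences between arrays of a group. The nearest genes were picked from all tested genes outside the family, so small distances come with the search.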

How the data were processed

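Expression was measured on Affymetrix U133 2.0 arrays, 2 per group. The deposited values are log2 probe set levels made by the authors. Affy, RMA and limma appear in the submitters' processing notes without role or order, and the exact steps are not stated in what was used here. Members and lists were chosen with earlier results of these data known.

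Names came from the platform annotation: 41091 of 54613 probe sets had exactly 1 symbol, 1801 several and 11721 none. All 21 family gene IDs matched the RefSeq table, with 0 symbols updated. Probe sets were kept when the second-highest of their 8 values reached the median of all values (4.49), which left 28985 probe sets and 13381 genes, a gene being its probe set with the highest mean.

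One limma fit (version 3.58.1, R 4.3.3) took all 8 arrays, with 1 coefficient per group (4 residual, 3.69 prior degrees of freedom). Each of the 6 comparisons was adjusted by Benjamini-Hochberg over all kept probe sets, and calls had an adjusted p below 0.05. With 2 arrays per side, exact permutation reaches no p smaller than 0.333, so it was not run. The code of the fit was run on simulated data with known changes, which does not measure the error rates of these arrays. Named genes were the members, the 12 other family genes, up to 2 highest and 2 lowest called genes per list and compound, and the 3 genes most like each member (for EFNB1, EPHA1 and EPHB6 the nearest is printed). Promoters are from RefSeq (GRCh38.p14), 250 bases upstream, 1 start site per gene. Motif searches and figures used Python 3.11.15, pandas 2.3.3 and matplotlib 3.10.9. Protein sequences were not used here, and 1 gene list is not reported here. The alternatives were other filters, variance priors, scalings and probe set rules, the replicate block, and arrays left out.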

Additional observations from a re-analysis of the deposited data

How the results depend on the processing

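The calls of EPHB3, EPHA4, EFNB2 and EFNA1 against vehicle held under every alternative in which the gene was tested, as did that of EPHB4 with SAHA. Of 894 member differences recomputed, 828 kept direction and side of the threshold, 41 lost a call, 9 gained one and 16 changed sign, and for the 1059 of other named genes these counts were 1018, 22, 8 and 11. The cause was not tested. Scaling on 105 ribosomal probe sets moved all-gene medians by at most -0.031.

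Members called between largazole and FK228 numbered 1 with no filter and 1 with only the 4 arrays compared, and 0 to 2 with 1 array left out. Between FK228 and SAHA they numbered 0 with no filter and with only the 4 arrays compared, 2 with the stricter filter (6.87) and with the intensity trend and robust prior, 3 with the mean of all probe sets, and 0 to 1 with 1 array left out. EPHA2 gained calls for FK228 against vehicle (adjusted p = 0.0322 with the stricter filter) and against SAHA (0.0174).

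The mean of all probe sets turned EPHB3 (-0.22) and EFNB2 (-0.02) between largazole and FK228, and EFNB2 between largazole and SAHA (0.07) and between FK228 and SAHA (0.10). Without _x_at and _s_at probe sets EFNB3 with SAHA was -0.04. With 1 array left out, uncalled differences that changed sign ranged as follows. Against vehicle with largazole, EPHA1 ran from -0.04 to 0.17, EPHB6 from -0.01 to 0.37 and EFNB3 from -0.01 to 0.21. With SAHA, EPHB6 ran from -0.08 to 0.12, EPHA10 from -0.14 to 0.17, EFNA4 from -0.03 to 0.32 and EFNB3 from -0.03 to 0.19. With FK228, EPHA1 ran from -0.41 (the only call among these) to 0.15, EFNA4 from -0.03 to 0.29, EFNA5 from 0.00 to 0.60, EFNB3 from -0.03 to 0.20 and EPHA8 from -0.04 to 0.09. Between largazole and FK228, EPHA1 ran from -0.09 to 0.48, EPHB3 from 0.00 to 0.12 and EPHB4 from -0.07 to 0.01. Between largazole and SAHA, EPHA4 ran from -0.06 to 0.16 and EPHB6 from -0.03 to 0.35. Between FK228 and SAHA, EPHA1 ran from -0.22 to 0.34 and EFNB1 from -0.02 to 0.10.

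The replicate numbers have 2 pairs per comparison and are only numbers: array deviations of one number correlated at 0.13 to 0.27 between groups. With the replicate block, 1864 genes were called between largazole and FK228 (1214 without it) and 1424 between FK228 and SAHA (823 without it). Members called between FK228 and SAHA numbered 2, with EPHA2 added (adjusted p = 0.0478), and the other member counts did not move.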
